A study of Mus musculus with 8 samples.

Results

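The genes described here are the ligands, receptors and SMAD proteins of the TGF-beta superfamily, measured in adult mouse lung after removal of the left lung. A gene was taken when its symbol was Tgfb, Bmp or Smad followed by a number, or began with Tgfbr, Bmpr, Acvr or Inhb. This gave 39 of the 18193 genes that the arrays measure with at least 1 probe set of a single symbol: 16 ligands, 12 receptors, 8 SMADs and 3 genes that only carry the name (Bmp1, a procollagen-cleaving protease, Bmp2k, a kinase induced by BMP2, and Tgfbrap1, a receptor-associated protein). Bmp3 and Tgfbr3l were not analysed here. Each gene is represented by its brightest probe set over the 8 arrays, and 29 of the 39 have further probe sets, which are given where they differ.

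The mice were female C57BL/6, 10 to 12 weeks old. In the PNY group the left lung was removed by unilateral pneumonectomy. In the SHAM group the chest was opened by thoracotomy, held open and closed again with the lung in place. All animals of both groups were anesthetized with ketamine and xylazine, ventilated, and given ampicillin and buprenorphine. Lungs were collected 6 hours after surgery and again on days 1, 3 and 7, and equal amounts of tissue from 8 mice were pooled for each of the 8 arrays, so that each surgery has 1 array per time point and 4 in all. No unoperated mice are among the samples. Between PNY and SHAM, p-values rest on the spread between pools of different time points, and no p-value rests on the spread between mice. Levels are log2 RMA values, and a difference of 1 is a 2-fold change. In whole lung, fewer cells of a type and less RNA per cell cannot be told apart.

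TGF-beta superfamily ligands are secreted dimers that bring together type II and type I serine/threonine kinase receptors. In broad outline, TGF-beta and activin receptors phosphorylate Smad2 and Smad3, BMP receptors phosphorylate Smad1, Smad5 and Smad9, Smad4 is the shared partner, and Smad6 and Smad7 are inhibitors. In the lung, TGF-beta is known for its control of matrix production by fibroblasts, and the BMP receptors Bmpr2 and Acvrl1 for their roles in the pulmonary vascular endothelium.

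The surfactant gene Sftpc lay between 14.65 and 14.69 and the club cell gene Scgb1a1 between 14.71 and 14.82 on the 8 arrays, as lung tissue would give. Some arrays also held transcripts of other tissues. The thymocyte gene Rag1 was at 9.60 on the PNY array of 1 day and between 2.56 and 3.62 on the other arrays. The skeletal muscle gene Acta1 was at 8.17 in PNY at 7 days and 7.47 in SHAM at 1 day, against 5.90 to 6.18 elsewhere. The atrial gene Nppa was lowest in SHAM at 7 days, at 5.52. For genes singled out for their value at 1 day or at 7 days, the mean difference is therefore also given without the arrays of that time. The adipocyte gene Adipoq was at 8.47 in PNY and 6.89 in SHAM at 6 hours, and between 6.23 and 7.72 later. No mean PNY minus SHAM difference without the arrays of 6 hours is given.

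No gene of the 39 passed a test between PNY and SHAM across all probe sets. Rank products, which rank the fold change of every probe set over the 16 PNY-SHAM array pairs (P below 0.001 and a fold change of at least 1.5), called 0 of the 39 genes, against 0.566% of all 18193 genes (0.506% higher and 0.0605% lower in PNY). The moderated test of limma, with Benjamini-Hochberg adjustment over all probe sets, also called 0 of the 39 and 0 of all genes. At an unadjusted p below 0.05, limma passed 1 of the 39 (Smad9) and 2.17% of all genes. Across the 39 genes, the median of the mean PNY minus SHAM differences was 0.01 on the log2 scale, the same as the 0.01 of all genes, and 22 of 39 means were above 0.

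By time point, where each group is 1 array and no test is possible, the median size of the difference over the 39 genes was 0.10, 0.12, 0.09 and 0.14 in order of time from 6 hours on. Over all genes it was 0.14, 0.13, 0.11 and 0.14. A fold change of 1.5 was passed by 1 of the 39 genes at 6 hours (1.72% of all genes), by 1 at 1 day (2.97%), by 0 at 3 days (1.65%) and by 0 at 7 days (3.46%). The gene past it at 6 hours was Inhbe, the activin subunit beta E, and the gene past it at 1 day was Smad9. Both have levels under 5.92, the median of all probe sets, and 31 of the 39 genes lie above it.

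**Figure D1:**
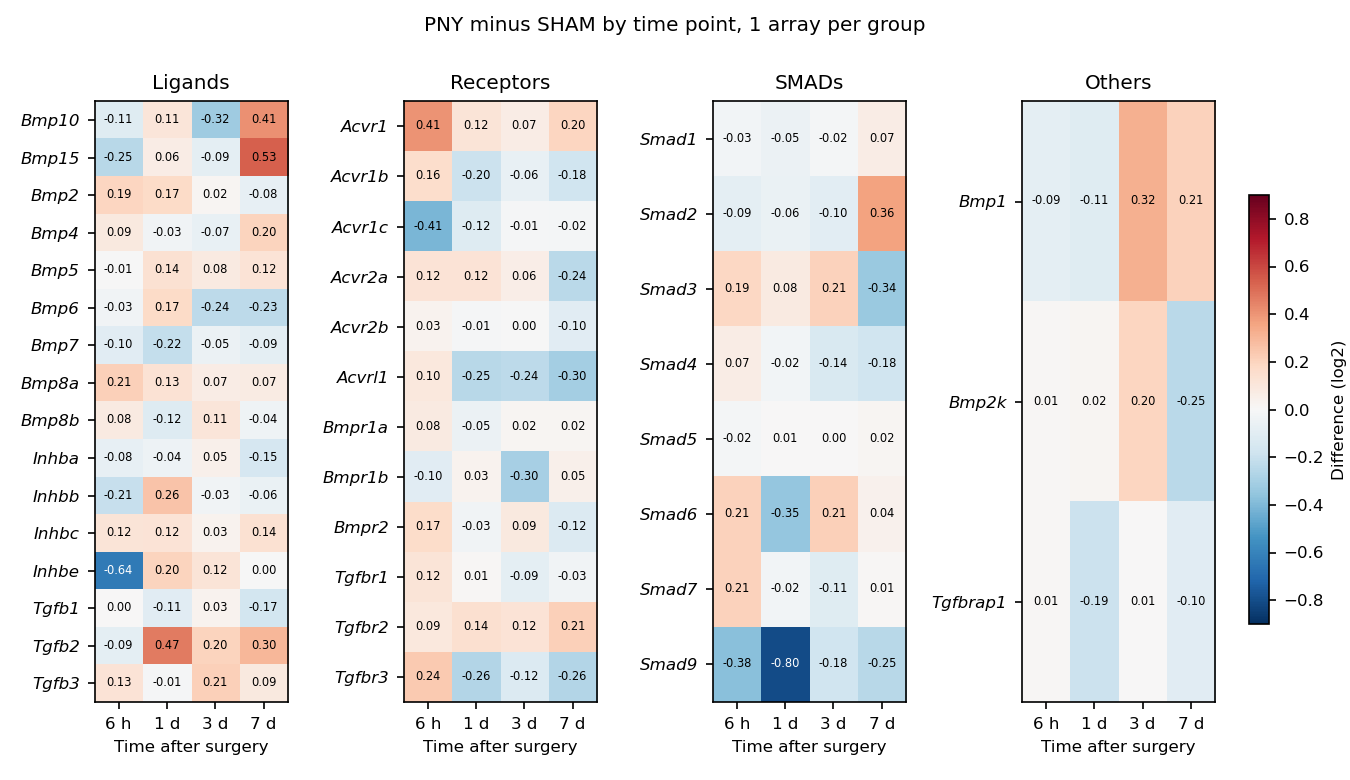
PNY minus SHAM (log2, color) for each of the 39 genes at the 4 time points, by role; every cell is the difference of 1 PNY and 1 SHAM array. The 2 cells past a fold change of 1.5 are Smad9 at 1 day (-0.80) and Inhbe at 6 hours (-0.64).

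Among the ligands, Tgfb2, an isoform of TGF-beta made by epithelial and mesenchymal cells, had the highest mean difference of all 39 genes. Its level in PNY was 7.70, 8.19, 8.46 and 8.45 from 6 hours to 7 days. In SHAM it was 7.79, 7.72, 8.26 and 8.15 at the same times. PNY was therefore higher at 1, 3 and 7 days and lower at 6 hours, and the groups overlapped. The mean difference was 0.22 ± 0.23 (SD, n = 4 time points). At 1 day, the difference was 0.47, and the other 3 probe sets of the gene gave between 0.29 and 0.54. Without both arrays of 1 day, the PNY array of which held thymocyte transcripts, the mean difference of Tgfb2 was 0.14.

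The other TGF-beta isoforms, Tgfb1 and Tgfb3, had mean differences of -0.06 and 0.10. Leaving out 1 array could turn the sign of both, with means from -0.21 to 0.07 for Tgfb1 and from -0.15 to 0.35 for Tgfb3. Such means set groups with unlike time points against each other. Without both arrays of 1 day or both of 7 days, the mean differences were -0.04 and -0.02 for Tgfb1. For Tgfb3 they were 0.14 and 0.11. Bmp8a and Inhbc exceeded SHAM at each time, by 0.07 to 0.21 and by 0.03 to 0.14, and Bmp7 was lower at all 4, by 0.05 to 0.22. These 3 are dim, with levels under the median. Inhbe was at 3.38, 3.54, 3.72 and 3.44 in PNY and at 4.02, 3.34, 3.61 and 3.45 in SHAM from 6 hours to 7 days. Only its SHAM array of 6 hours stood above the rest, and its mean difference was -0.08 ± 0.38 (SD, n = 4 time points). Bmp4 and Bmp5, ligands of the BMP arm in lung, differed by -0.07 to 0.20 and by -0.01 to 0.14.

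Among the receptors, Tgfbr2, the type II receptor of TGF-beta, was the sole gene whose PNY and SHAM arrays did not overlap. It was at 11.91, 11.89, 11.94 and 12.09 in PNY and at 11.81, 11.75, 11.82 and 11.88 in SHAM from 6 hours to 7 days. PNY was higher at each time, by 0.09 to 0.21, with a mean difference of 0.14 ± 0.05 (SD, n = 4 time points). The exact two-sided permutation test gave p = 0.0286, the smallest that 70 splits of 8 arrays allow. It splits the arrays freely, without regard to which PNY and SHAM arrays share a time point. In limma, the unadjusted p was 0.129 and the adjusted p was 1.00. Over all genes, 1.58% had groups that did not overlap, and 2 of the 39 did (Tgfbr2 and Smad9). With each array centred on its own median, 0 of the 39 did. A further Tgfbr2 probe set of high level gave differences between -0.23 and 0.34, with overlapping groups.

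Acvr1, a type I receptor used by BMPs and activins, was also higher in PNY at all 4 time points, by 0.07 to 0.41, but its groups overlapped. Acvrl1, the endothelial type I receptor also known as ALK1, was at 11.12, 11.02, 11.20 and 11.07 in PNY and at 11.02, 11.27, 11.44 and 11.37 in SHAM from 6 hours to 7 days. It was lower in PNY at 1, 3 and 7 days, by 0.24 to 0.30, but its other probe set gave 0.02 at 3 days and 0.02 at 7 days. Bmpr2, the type II BMP receptor with the highest level of the receptors, was at 12.33, 12.27, 12.18 and 12.19 in PNY and at 12.17, 12.30, 12.09 and 12.31 in SHAM. Its differences ranged from -0.12 to 0.17, with overlapping groups. The mean differences of the 12 receptors ran from -0.17 (Acvrl1) to 0.20 (Acvr1), with a median of -0.01. Acvr1c was lower at all 4 time points, by 0.01 to 0.41, on a dim probe set, and 1 sign at all 4 time points was found for 17.9% of the 39 genes and 15.3% of all genes (4 of 39 higher against 9.36%, and 3 of 39 lower against 5.94%).

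Among the SMADs, Smad9, a receptor-activated SMAD of the BMP arm, was lower in PNY at each time point. Its level in PNY was 4.29, 3.71, 4.13 and 4.18 from 6 hours to 7 days, and in SHAM it was 4.66, 4.51, 4.31 and 4.43. Every PNY array lay under every SHAM array. The mean difference was -0.40 ± 0.28 (SD, n = 4 time points), with a limma standard error of 0.14, an unadjusted p of 0.0149 and an adjusted p of 1.00. The exact permutation test, again without regard to shared time points, gave p = 0.0286, the smallest possible. The 1.74-fold lower value at 1 day weighed most, and without both arrays of 1 day the mean difference was -0.27. Smad9 has 1 probe set on the array, of low level.

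The other SMADs moved little. Smad5 differed by -0.02 to 0.02 at the 4 time points and Smad1 by -0.05 to 0.07. Smad4, the shared partner and the SMAD with the highest level, was at 11.13, 10.91, 10.73 and 10.76 in PNY and at 11.07, 10.93, 10.87 and 10.94 in SHAM, so that the groups overlapped. Of the inhibitors, Smad6 differed by -0.35 at 1 day and 0.21 at 6 hours and at 3 days (mean difference 0.03, and 0.15 without the arrays of 1 day), and Smad7 by -0.11 to 0.21. Smad2 and Smad3, the SMADs of the TGF-beta and activin arm, differed by 0.36 and -0.34 at 7 days, and without the arrays of 7 days their mean differences were -0.08 and 0.16. The mean differences of the 7 SMADs other than Smad9 lay between -0.07 and 0.04.

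Probe sets of the same gene parted by more than a fold change of 1.5 in 8 cases, spread over 7 genes. The bright Smad3 probe set gave 0.21 at 3 days and a dimmer one gave -0.57. For Acvr2b, an activin type II receptor, the values at 7 days were -0.10 and -0.85. For Smad5 at 3 days they were 0.00 and -0.67. The remaining 5 cases concern probe sets with levels under the median, for Acvr1c, Bmp7, Bmpr1a and Bmpr1b.

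Whether the surgery difference itself changed from the earlier to the later time points was tested as an interaction of surgery with 3 and 7 days against 6 hours and 1 day. In limma, 0 of the 39 genes passed at an adjusted p below 0.05 and 0 at an unadjusted p below 0.05. Over all genes 0 passed after adjustment and 2.46% before it.

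Time after surgery, in a model with surgery as a further term, gave calls among the 39 genes where surgery gave 0. Here p-values rest on how far the PNY and SHAM pools of a time point part beyond a constant surgery difference. The fit leaves 3 residual degrees of freedom per probe set. The moderated F test of limma over the 4 time points called 2 of 39 genes, Tgfb3 (adjusted p = 0.0116) and Tgfbr3 (adjusted p = 0.0400), against 4.04% of all genes. When the 2 arrays of 6 hours were set against the 6 arrays of 1, 3 and 7 days, 6 of 39 genes were called, 15.4%. This share was near the 11.2% of all genes. All 6 are among the 31 with levels above the median, where the share was 19.4% against 14.9% of all genes above it. The called genes were the ligands Tgfb3, Bmp6 and Tgfb1, which were lower at 6 hours (7.72% of all genes), and Tgfbr3, Acvr1b and Smad1, which were higher (3.50% of all genes). With no unoperated mice, it cannot be told whether the 6 hour or the later values had moved, and time after surgery cannot be told apart from time of day or from the handling of the samples.

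Tgfb3, the TGF-beta isoform best known from palate and lung development, was at 8.63 in PNY and 8.50 in SHAM at 6 hours. It was then at 9.49, 9.76 and 9.60 in PNY and at 9.50, 9.55 and 9.52 in SHAM. Both arrays of 6 hours lay under all 6 later arrays. Levels after 6 hours were 2.01-fold higher (log2 difference -1.01, standard error 0.09, limma adjusted p = 0.00186), and the call was kept when any 1 of the 8 arrays was left out (adjusted p from 0.00327 to 0.0428).

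Tgfb1, the most studied isoform in fibrosis, was at 9.52 in both groups at 6 hours. It was then at 9.91, 10.09 and 10.10 in PNY and at 10.01, 10.06 and 10.27 in SHAM, again above both early arrays. The log2 difference was -0.55 (standard error 0.09, limma adjusted p = 0.0136). A dim probe set of the gene gave -0.00. The call was lost without the PNY array of 6 hours (adjusted p = 0.0996) and without the SHAM array of 6 hours (adjusted p = 0.143).

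Bmp6, a BMP ligand known as a regulator of hepcidin and iron and here the ligand with the highest level, was at 9.87 in PNY and 9.90 in SHAM at 6 hours. Later it was at 10.43, 10.39 and 10.45 in PNY and at 10.26, 10.62 and 10.69 in SHAM, with no overlap. The log2 difference was -0.59 (standard error 0.11, limma adjusted p = 0.0201). The call was lost when the 6 hour array of PNY (0.128) or of SHAM (0.185), or the 3 day array of SHAM (0.0573), was left out. Tgfb2 had a log2 difference of -0.46 (standard error 0.12, limma adjusted p = 0.0575), so it did not pass. Its other 3 probe sets gave -0.40 to -0.58, of which 1 passed (adjusted p = 0.0120). Bmp15, a dim ligand, did not pass either (0.10, limma adjusted p = 0.739). A still dimmer probe set of Bmp15 passed as higher at 6 hours (0.43, limma adjusted p = 0.0293). Another Bmp15 probe set gave 0.085 and did not pass (limma adjusted p = 0.677).

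Tgfbr3, or betaglycan, a coreceptor that presents TGF-beta and binds inhibin, was at 11.45 in PNY and 11.21 in SHAM at 6 hours. It was then at 10.38, 10.42 and 10.31 in PNY and at 10.64, 10.54 and 10.57 in SHAM. The 6 hour arrays were higher than all later ones, by 1.81-fold (log2 difference 0.86, standard error 0.12, limma adjusted p = 0.00734), and its other probe set gave 1.18 (adjusted p = 0.00804). The call was lost without the PNY array of 6 hours (log2 difference 0.63, adjusted p = 0.0872). The difference was 1.08 within PNY and 0.63 within SHAM, and the test of whether these differ gave an unadjusted p of 0.0367 in limma that did not pass adjustment.

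Acvr1b, the activin type I receptor also called ALK4, was at 10.26 in PNY and 10.10 in SHAM at 6 hours and between 9.65 and 9.85 on the 6 later arrays. The log2 difference was 0.44 (standard error 0.11, limma adjusted p = 0.0454), and a dim probe set of the gene gave 0.24, which did not pass (adjusted p = 0.365). Smad1, which carries BMP signals, was at 9.98 in PNY and 10.00 in SHAM at 6 hours and between 9.49 and 9.74 later. Its log2 difference was 0.39 (standard error 0.09, limma adjusted p = 0.0375), and its other 2 probe sets gave 0.35 and 0.40, which did not pass (adjusted p = 0.0682 and 0.0636). Both calls were lost when any 1 of the 8 arrays was left out, although the 6 hour arrays did not overlap the later arrays for either gene.

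**Figure D2:**
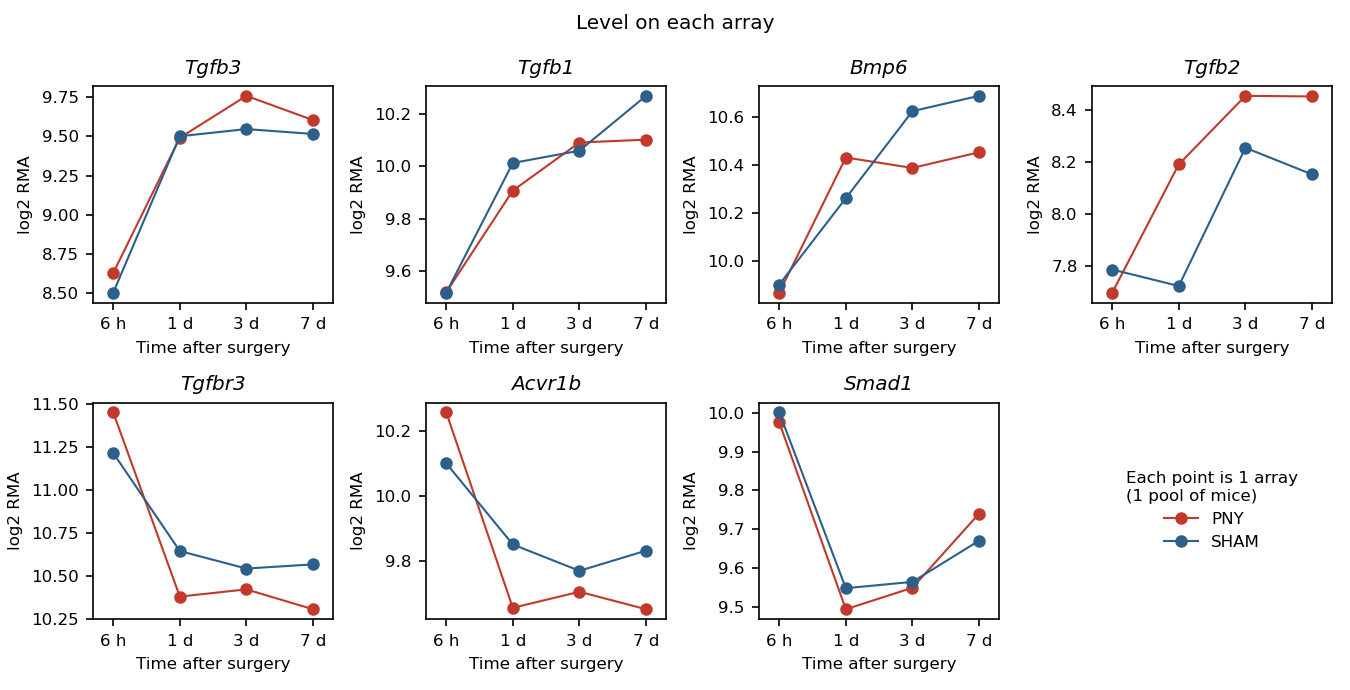
Level (log2 RMA) of the 6 genes called at 6 hours against later, and of Tgfb2, against time after surgery; each point is 1 array, red for PNY and blue for SHAM. Tgfb3 rises from 8.50 and 8.63 at 6 hours to between 9.49 and 9.76 later, and Tgfbr3 falls from 11.45 to between 10.31 and 10.42 in PNY and from 11.21 to between 10.54 and 10.64 in SHAM.

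For all 39 genes, 8 had 6 hour arrays that did not overlap the later ones, which is 20.5% against 29.7% of all genes. Besides the 6 called genes these were Smad4 (log2 difference 0.24) and Bmpr1b (-0.28), which did not pass the test. In the PNY arrays alone and in the SHAM arrays alone, where a single array of 6 hours faces 3 later arrays, limma called 0 of the 39 genes, against 0 of all genes in PNY and 0.011% in SHAM. At an unadjusted p below 0.05, 6 of 39 passed in each (15.4%), near the 15.5% of all genes in PNY and the 16.9% in SHAM. The direction of all 6 called genes was the same in PNY and in SHAM, which the call itself favors, as it averages both surgeries. A test of whether the 6 hour difference depends on surgery passed 0 of 39 genes after adjustment and 2 before it (Inhbe and Tgfbr3), with 3.88% of all genes before it. Between 1 day and the mean of 3 and 7 days limma called 0 of the 39, against 0.044% of all genes (7 at an unadjusted p below 0.05, 13.4% of all genes), and between 7 and 3 days 0 (1 unadjusted, 3.61%).

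**Figure D3:**
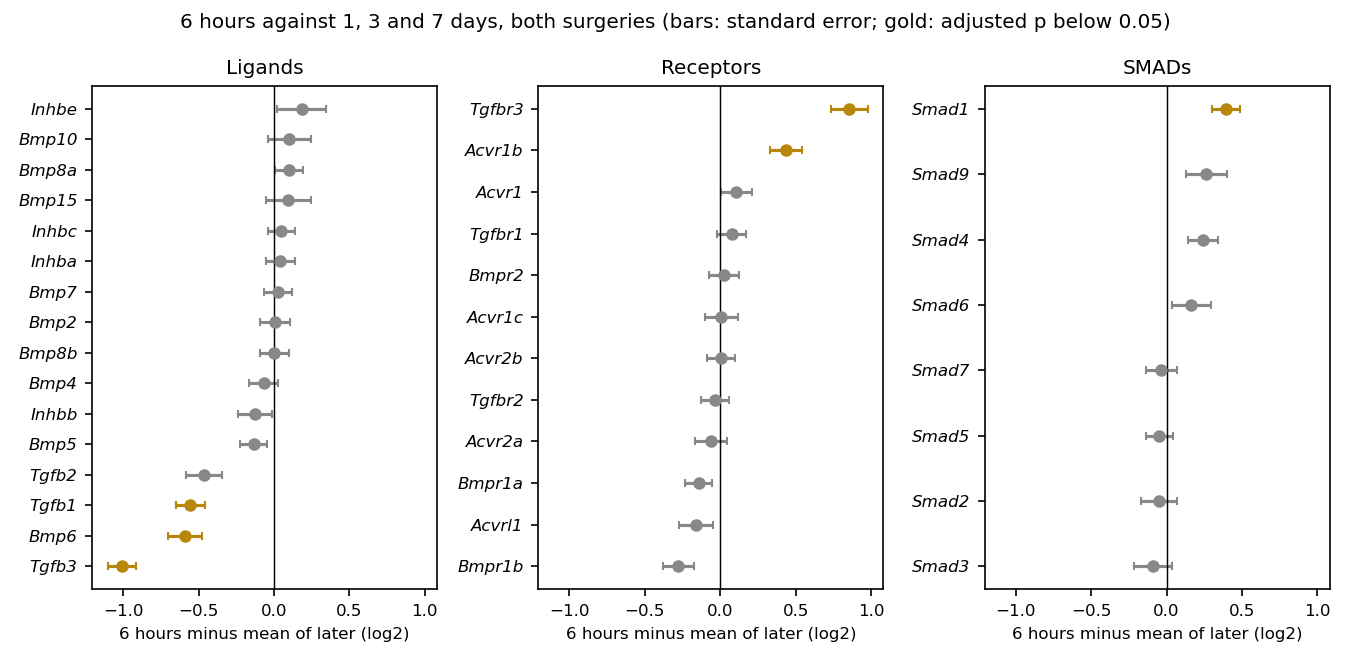
Log2 difference between the 2 arrays of 6 hours and the 6 later arrays for the ligands, receptors and SMADs; points are limma estimates, bars standard errors, and gold marks adjusted p below 0.05. Tgfb3 (-1.01) and Tgfbr3 (0.86) lie farthest from 0.

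The marker lists of some cell types also differed between 6 hours and the later time points. Of the fibroblast markers, 2 of 5 were called lower at 6 hours (Col1a1 and Tcf21), and the summed level of the list was 13.33 to 13.53 at 6 hours and 13.56 to 13.74 later. The endothelial list had 2 of 5 lower (Kdr and Tek), with summed levels of 13.41 to 13.53 and 13.56 to 13.79. The mesothelial list had 2 of 3 lower, with 10.44 to 10.95 and 11.08 to 12.10, and the B cell list 2 of 2, with 9.14 to 9.45 and 9.96 to 10.90. The neutrophil list had 0 of 3 called, but its summed level was 13.91 to 14.01 at 6 hours and 11.64 to 13.47 later. All markers of these 5 lists have levels above the median of all probe sets. Over all genes, 7.72% were called lower at 6 hours. Of the other marker lists, alveolar type I had 1 of 5 called lower and alveolar macrophage 1 of 3. The rest, with alveolar type II, club, smooth muscle and T cell among them, had 0 called. The part of these cell types in the differences of Tgfb3, Tgfb1, Bmp6, Tgfbr3, Acvr1b and Smad1 was not tested.

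The 250 bases before the start site are shown for the genes called at 6 hours and for Tgfb2, so that the promoters of ligands that moved alike can be read side by side. They come from a set of promoter windows on build GRCm38.p6 that covers 30 of the 39 genes. They run 5′ to 3′ along the gene, with its first transcribed base just after the last letter. Tgfb1 is at chr7:25686752-25687001 on the plus strand, Bmp6 at chr13:38345466-38345715 on the plus strand, Tgfb2 at chr1:186705990-186706239 on the minus strand, Acvr1b at chr15:101173822-101174071 on the plus strand and Smad1 at chr8:79399429-79399678 on the minus strand. Tgfb3 and Tgfbr3 have no window in this set and are named only. Capitals mark matches on either strand to the TATA box (TATAAA), to the GC box, which binds Sp1 (GGGCGG), and to the E-box (CACGTG).
Tgfb1: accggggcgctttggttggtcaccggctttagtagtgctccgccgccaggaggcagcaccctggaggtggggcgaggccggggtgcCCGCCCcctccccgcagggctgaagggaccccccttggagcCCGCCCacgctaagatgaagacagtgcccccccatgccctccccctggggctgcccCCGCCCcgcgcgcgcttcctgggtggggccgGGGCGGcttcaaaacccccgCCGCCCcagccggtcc
Bmp6: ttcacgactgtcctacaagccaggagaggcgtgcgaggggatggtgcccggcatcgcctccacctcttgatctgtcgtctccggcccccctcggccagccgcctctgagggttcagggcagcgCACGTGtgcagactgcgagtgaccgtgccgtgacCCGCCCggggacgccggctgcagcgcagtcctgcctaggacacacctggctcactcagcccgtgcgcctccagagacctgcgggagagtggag
Tgfb2: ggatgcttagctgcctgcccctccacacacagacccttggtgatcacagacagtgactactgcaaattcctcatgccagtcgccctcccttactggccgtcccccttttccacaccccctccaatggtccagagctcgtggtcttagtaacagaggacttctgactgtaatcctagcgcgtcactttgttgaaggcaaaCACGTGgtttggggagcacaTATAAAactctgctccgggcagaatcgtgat
Acvr1b: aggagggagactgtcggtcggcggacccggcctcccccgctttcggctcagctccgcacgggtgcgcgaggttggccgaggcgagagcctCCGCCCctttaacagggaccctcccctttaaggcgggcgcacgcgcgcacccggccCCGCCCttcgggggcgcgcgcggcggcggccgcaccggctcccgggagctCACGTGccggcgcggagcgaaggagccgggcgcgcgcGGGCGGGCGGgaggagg
Smad1: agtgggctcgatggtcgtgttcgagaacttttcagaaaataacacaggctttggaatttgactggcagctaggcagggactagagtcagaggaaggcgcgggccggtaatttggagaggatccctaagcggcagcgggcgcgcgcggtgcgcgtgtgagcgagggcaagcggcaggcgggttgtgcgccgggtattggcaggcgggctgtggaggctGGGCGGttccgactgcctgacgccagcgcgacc

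Of all 32851 windows of the same length, 12.4% hold TATAAA, 32.7% GGGCGG and 6.02% CACGTG. Tgfb1 has 5 GC boxes, Acvr1b 4 (the 2 nearest the start overlap each other), Bmp6 and Smad1 1 each and Tgfb2 0. The TATA box is found in Tgfb2 alone of the 5, and the E-box in Tgfb2, Bmp6 and Acvr1b. The AP-1 site TGANTCA (6.75% of all windows), the cyclic AMP element TGACGTCA (1.55%), the SMAD palindrome GTCTAGAC (0.167%) and the GC-rich BMP SMAD site GGCGCC (9.59%) have no match in these 5 windows. The share of G and C was 75.2% for Tgfb1, 68.8% for Bmp6, 53.6% for Tgfb2, 78.8% for Acvr1b and 63.6% for Smad1, with a median of 52.4% over all windows.

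Beyond the 39 genes, 75 genes of 7 lists around the pathway were read in the same way. Ltbp2, Skil, Pmepa1 and Bambi are shared between lists, Ltbp2 between latent TGF-beta storage and known TGF-beta response genes. Rank products called 1 of the 75 between PNY and SHAM (1.33%, against 0.566% of all genes) and limma called 0 after adjustment. At an unadjusted limma p below 0.05, 7 of the 75 passed (9.33%, against 2.17% of all genes). The gene called was Ccn2, connective tissue growth factor, a matricellular protein and a textbook TGF-beta response gene. It was at 11.42, 10.96, 11.05 and 11.50 in PNY and at 10.78, 10.38, 10.52 and 10.84 in SHAM from 6 hours to 7 days. Every PNY array was above every SHAM array, and the mean difference was 0.60 (1.52-fold, permutation P of the rank products = 0.000229). Leaving out PNY at 6 hours, PNY at 7 days, SHAM at 1 day or SHAM at 3 days ended the call, with mean differences of 0.52 to 0.57 that fall under the fold threshold.

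The list of known TGF-beta response genes held 11 measured genes, of which 10 had a mean difference above 0, and 6 exceeded SHAM at every time point (9.36% of all genes do). Its median mean difference was 0.21, against 0.01 for all genes. Col1a1, the main collagen of fibroblasts, was at 10.02, 10.36, 10.64 and 10.77 in PNY and at 9.70, 10.13, 10.10 and 10.16 in SHAM, a difference that was 0.31 at 6 hours and 0.61 at 7 days. The mean difference of Col1a1 was 0.42, and 0.36 without the arrays of 7 days. Acta2 and Tagln, smooth muscle actin and transgelin, had mean differences of 0.25 and 0.27, and Acta2 values did not overlap. Klf10, an early response gene, had a mean difference of -0.01. Ccn2 is among the genes that the study selected on these arrays, and 3 of the 11 are also on the marker lists (Col1a1 for fibroblasts, Acta2 and Tagln for smooth muscle). The summed smooth muscle markers were at 12.84 to 12.97 in PNY and 12.55 to 12.73 in SHAM, and the summed fibroblast markers at 13.53 to 13.74 and 13.33 to 13.60, and their part in these values was not tested.

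Genes of latent TGF-beta storage and activation had a median mean difference of 0.20, with 9 of 10 above 0 and 0 called by rank products. Thbs1, thrombospondin 1, which can release TGF-beta from its latent complex and is also among the genes the study selected, was at 9.38, 9.27, 9.82 and 10.06 in PNY and at 9.34, 8.59, 8.91 and 9.52 in SHAM. It was higher by 0.68, 0.92 and 0.54 at 1, 3 and 7 days but by 0.04 at 6 hours. The mean difference of Thbs1 was 0.54, and 0.50 without the arrays of 1 day. Itgb6, the partner of the alpha v integrin that activates TGF-beta on epithelium, was at 7.47, 7.63, 8.12 and 8.15 in PNY and at 7.14, 6.86, 7.89 and 7.61 in SHAM. PNY was higher at each time, by 0.77 at 1 day and by 0.23 to 0.53 at the others, although the groups overlapped. Its mean difference was 0.47, and 0.36 without the arrays of 1 day. Itgb8 passed a fold change of 1.5 at 3 days (0.65) and turned to -0.46 at 7 days. The mean difference of Itgb8 was 0.14, and 0.34 without the arrays of 7 days. The latent binding proteins Ltbp1, Ltbp2 and Ltbp3 had mean differences of 0.20, 0.28 and 0.21.

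Known BMP response genes had a median mean difference of -0.09, with 3 of 10 above 0 and 0 called. Hamp, the hepcidin gene, was at 7.62, 7.04, 6.77 and 6.55 in PNY and at 7.86, 7.79, 7.14 and 6.83 in SHAM, so it was lower at each time and most at 1 day (-0.76), with overlapping groups. Its mean difference was -0.41, and -0.29 without the arrays of 1 day. Hey1, a transcriptional repressor, was lower at all 4 time points, with a mean difference of -0.26. Id1 was higher at all 4, with 0.16, and Id4 had a mean difference of 0.17. Among the antagonists and modulators, the median was -0.01 and 8 of 17 were above 0. Chrdl1, a BMP antagonist that the study selected as lower in PNY, had a mean difference of -0.25 on its brightest probe set. It was not called here. Fstl3, a follistatin-like activin inhibitor, was higher in PNY at each time by 0.18 to 0.35, and its groups did not overlap. Fstl1 was higher by 0.26 to 0.31 and Crim1, a membrane-bound BMP antagonist, was lower by 1.07 at 7 days, which was 2.09-fold, with 0.10 at 6 hours. Its mean difference went from -0.40 to -0.18 without the arrays of 7 days. Nog (0.68 at 7 days) and Bmper (0.61 at 1 day) also passed a fold change of 1.5. Both have 1 such time point, and without the arrays of that time their mean differences went from 0.19 to 0.02 and from 0.21 to 0.07.

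Of the coreceptors and membrane modulators, with the type II receptor Amhr2 counted among them, 3 of 8 had a mean above 0, with a median of -0.05. Rgma, a BMP coreceptor, was lower in PNY at each time, by 0.20 to 0.37. Hjv (0.66 at 6 hours) and Amhr2 (0.59 at 1 day) passed a fold change of 1.5, and the mean difference of Amhr2 went from 0.14 to -0.01 without the arrays of 1 day. The other superfamily ligands (median 0.01, 7 of 11 above 0) and the SMAD partners and negative regulators (median 0.02, 8 of 12 above 0) had no gene past it.

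**Figure D4:**
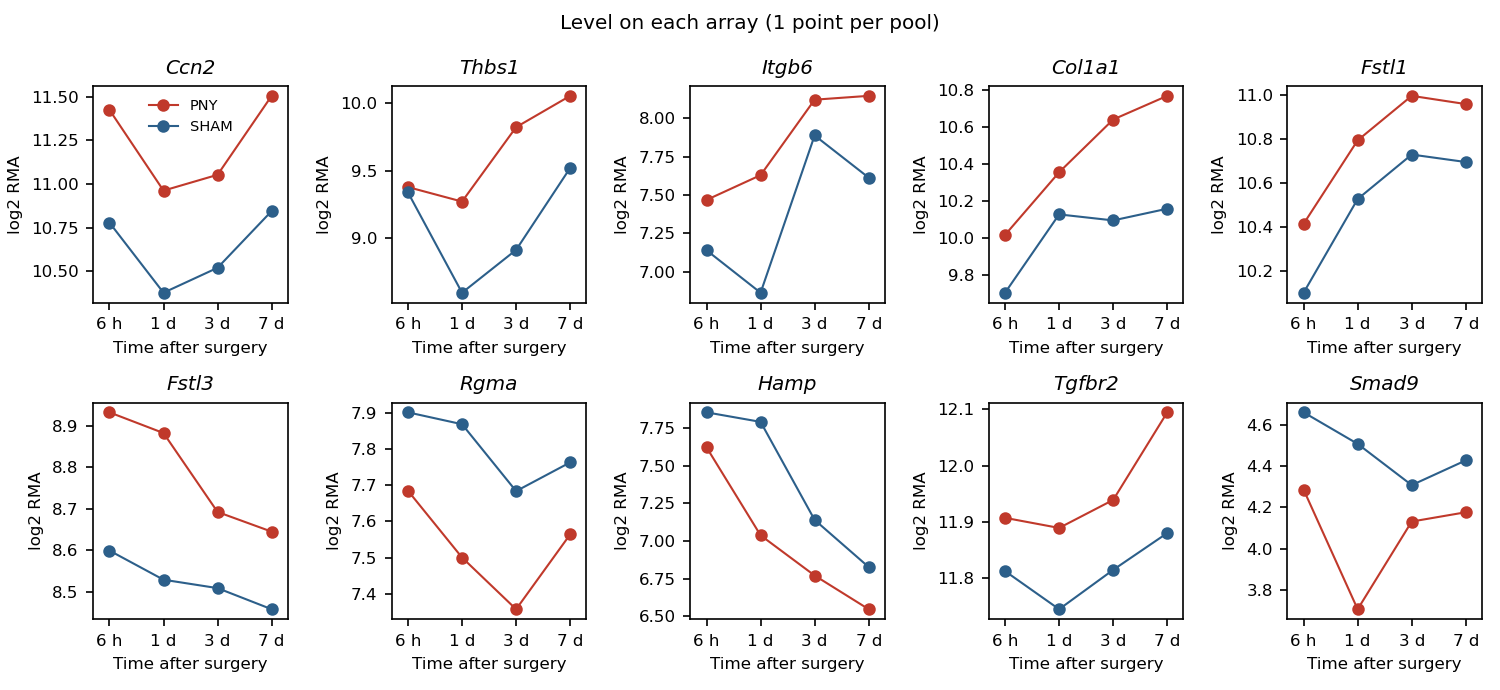
Level (log2 RMA) of 8 pathway genes and of Tgfbr2 and Smad9 against time after surgery; each point is 1 array, red for PNY and blue for SHAM. Ccn2, Fstl3, Tgfbr2 and Smad9 have PNY and SHAM arrays that do not overlap.

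**Figure D5:**
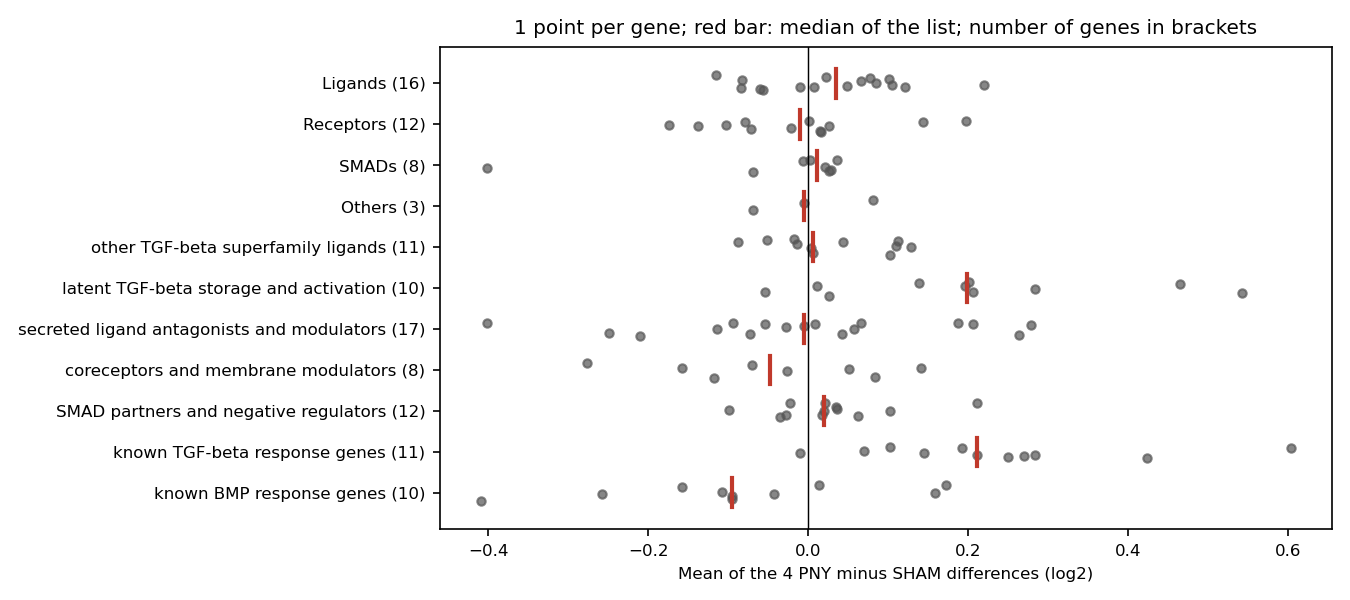
Mean of the 4 PNY minus SHAM differences (log2) for each of the 39 genes, by role, and each gene of the 7 pathway lists; red bars are medians. The medians lie at 0.20 for latent TGF-beta storage and activation and 0.21 for known TGF-beta response genes, and at 0.04 for ligands, -0.01 for receptors and 0.01 for SMADs.

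Of the 75 genes, 4 were called higher and 6 lower at 6 hours than later by limma, which is 5.33% and 8.00%, near the 3.50% and 7.72% of all genes. Those higher were Fst, the activin-binding protein follistatin (0.84, adjusted p = 0.00741), Hamp (0.72, 0.0135), Nedd4l, a ubiquitin ligase that acts on SMADs (0.69, 0.0107), and Ppm1a, a SMAD phosphatase (0.41, 0.0331). Those lower were Tll1, a chordin-cleaving protease (-0.77, 0.0133), Pmepa1, a feedback inhibitor of TGF-beta signaling (-0.62, 0.0117), Id4 (-0.60, 0.0132), Gdf10 (-0.54, 0.0125), Fstl1 (-0.53, 0.0132) and Col1a1 (-0.50, 0.0333). Follistatin was at 7.18 in PNY and 7.09 in SHAM at 6 hours and between 6.05 and 6.51 later. Pmepa1 was at 8.82 and 8.60 at 6 hours and between 9.09 and 9.51 later. Of the 11 known TGF-beta response genes, 2 were called lower at 6 hours and 9 were not called. Their median log2 difference was -0.04.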

How the data were processed

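RNA from lung tissue pooled from 8 mice per group and time point was hybridized to 8 Affymetrix whole-genome mouse arrays. The authors summarized probes with RMA (version not given in the sources used here), and the deposited values are log2 expression levels, background corrected and quantile normalized, one per probe set, which compresses differences of dim probe sets. The number of arrays limits the precision. After leaving out 64 control probe sets, 45037 remained, and the platform annotation gives 34945 of them exactly 1 symbol. Array medians lay between 5.90 and 5.95.

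The time points served as replicates, as in the study. Rank products were coded in Python 3.11.15 (numpy 2.4.6, pandas 2.3.3) with 1000 permutations, and 100 in the alternatives. Models across all probe sets were fitted with limma 3.58.1 in R 4.3.3. Both were tested on simulated data. Plots were made with matplotlib 3.10.9. PNY and SHAM arrays of the same time point deviated together from their group means (r = 0.605, 0.357, 0.302 and 0.295), so time point pairs them. Alternatives were the time point as a block, scaling, a filter on dim probe sets, thresholds, the probe set used and leaving out arrays. For pathway genes, leaving out the arrays of 1 day or 7 days was chosen after seeing the data.

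Genes were given array by array when called, past a fold change of 1.5, with groups that did not overlap, with 1 sign at all 4 time points and a mean size of at least 0.3, or highest in level for their role. Tgfb2, Acvr1 and Acvrl1 were added after their values were seen, as were Acta2, Klf10, Id1, Ltbp1 and the list genes called at 6 hours. Other list genes were those called by rank products, past a fold change of 1.5 or among the 4 largest mean differences of their list. The genes and lists were chosen with earlier results of these data known.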

Additional observations from a re-analysis of the deposited data

Results flagged for a closer look

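In 6 of 78 groups of 4 arrays (39 genes, PNY and SHAM apart), the most distant array stood farther from its nearest neighbor than Dixon's 95% limit for 4 samples allows. Chance alone gives about 1 in 20 such groups. The array of 6 hours stood apart in 5 of them. These were Tgfbr3 in PNY (11.45) and in SHAM (11.21), Acvr1b in PNY (10.26), Bmp6 in PNY (9.87) and Tgfb3 in SHAM (8.50). The remaining one was Inhba, the activin subunit beta A, whose SHAM array of 1 day was at 5.93 against 6.10 to 6.13 on the other SHAM arrays. No gene of the 39 passed a test of a difference between the surgeries in its time course, by limma after adjustment.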

How the results depend on the processing

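Rank products and limma called 0 of the 39 genes between PNY and SHAM under every alternative run, including without any 1 array or any time point, and the time point as a replicate block changed no call (0 genes by either test). The interaction, 1 day against 3 and 7 days, and 7 days against 3 days also stayed at 0. The F test of time called 2 genes, 7 with a trended and robust prior, 5 among probe sets above the median level, and 0 to 2 without any 1 array. For 6 hours against later, 6 genes were called, 1 to 5 without any 1 array (1 without the PNY and 2 without the SHAM array of 6 hours, 3 without the SHAM array of 3 days), and 0 in PNY arrays only and 0 in SHAM arrays only. These last fits were chosen after seeing the data, and all values there kept their direction, which the call over both surgeries favors. Acvr1b was lost with arrays centred on their medians (0.44, adjusted p = 0.0527). A fold change of 1.5 at any time point was passed by 2 genes, by 1 after a further quantile normalization (0 at 6 hours), and by 0 at a fold change of 2 (0 at 6 hours and 0 at 1 day). The exact permutation test reached its smallest p for 2 genes, and for 0 with arrays centred, also chosen after seeing the data. Signal near background limits Smad9, Inhbe, Bmp8a, Inhbc and Acvr1c. The number of arrays limits all tests.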
